A study of Mus musculus with 33 samples.

Results

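The data described here are 6 of the 33 RNA sequencing libraries of a series on the developing skull roof of the mouse (Mus musculus). They are the 3 libraries labelled E12 and the 3 labelled E11.5, taken by those stage labels and compared across all genes. Both groups are polyA RNA from the frontal bone region of the calvaria, the vault of the skull, and by their labels they differ in embryonic day alone, E12 against E11.5. No treatment is named. The sources used here do not state strain, genotype, sex or how many embryos went into a library, so a p-value covers the spread from library to library and no more. The series sampled 11 stages with 3 libraries each, and its title speaks of citrate, extracellular vesicles and mineral formation. Each library was a column of read counts for 55401 genes, and 17591 of them had enough counts to be tested.

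The frontal bone forms by intramembranous ossification, in which mesenchymal cells, many of them from the neural crest, condense and turn into osteoblasts without a cartilage model. Twist1, Msx2 and the Alx factors are transcription factors of the cranial mesenchyme, Runx2 and then Sp7 commit cells to the osteoblast lineage, and Ibsp, Spp1 and Alpl are used in making mineralized matrix. The region lies close to the brain and its coverings, the eye, the surface ectoderm and vessels, so tissue taken from it can carry RNA of several cell types. In bulk RNA, fewer cells of a type and less RNA per cell cannot be told apart.

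Library totals ran from 14516518 to 18298159 counts and overlapped between the stages. Levels are given as CPM (counts scaled to a common library total, with a correction for composition over the 6 libraries), and differences as log2 fold changes of E12 against E11.5 with an approximate standard error (SE). The 3 E11.5 libraries were close to each other, with Pearson correlations across genes of 0.9921 to 0.9924 in log2 CPM. The E12 libraries were not: libraries a and b correlated at 0.9857, b and c at 0.9751 and a and c at 0.9572. Along the first principal component, which held 86.7% of the variance, the E11.5 libraries lay between -79.6 and -76.8 and the E12 libraries at 112.7 (a), 90.1 (b) and 30.5 (c). Fewer genes had a count at E12 (23271 to 24330) than at E11.5 (26189 to 26446).

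At E12, 5448 genes (31% of those tested) were higher and 5592 (31.8%) were lower than at E11.5, 62.8% in either direction, at an adjusted p below 0.05 in edgeR's quasi-likelihood test with Benjamini-Hochberg adjustment. Of these, 2767 genes (15.7%) rose and 3357 (19.1%) fell at least 2-fold. The 3 libraries of one stage lay wholly above or below those of the other for 12670 genes (72%), 6084 (34.6%) higher and 6586 (37.4%) lower at E12. Without E12 libraries a and b, in a fit of 31 libraries where library c is assumed to vary like those of other stages, 4918 of 21588 genes (22.8%) were higher and 4855 (22.5%) lower, 45.3% in all. With all 33 libraries in the fit 33.3% of 20073 genes were higher and 35.6% lower, 68.8% in all. Library c was the nearest of the E12 libraries to E11.5 for 2557 of the 2767 genes that rose at least 2-fold and for 2516 of the 3357 that fell. Its difference from E11.5 was, at the median, 0.51 (rises) and 0.68 (falls) of the mean difference of libraries a and b.

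The direction of change followed the exonic length of the gene, the summed length of its exons. Genes under 1000 bases had a median log2 difference of 0.93, with 672 of 1358 higher and 274 lower, while genes of 8000 bases or more had a median of -0.76, with 170 of 2733 higher and 1800 lower. Within the E12 libraries the same medians were 1.22 and -0.98 in library a, 0.89 and -0.89 in b, and 0.49 and -0.47 in c, against values within 0.02 of 0 in each E11.5 library. Each gene's log2 CPM was taken relative to its mean over the 6 libraries and set against log2 exonic length. The slope was 0.153 ± 0.0062 (SD, n = 3) at E11.5 and -0.153 ± 0.118 (SD, n = 3) at E12. Taken this way the group means are equal and opposite by construction, so only their difference, -0.306, carries information. The groups did not overlap, and the exact permutation test gave its smallest possible two-sided p for 3 against 3 libraries, 0.1. The comparison was therefore run again after a smooth trend of level on exonic length was taken out of every library, called length-adjusted here. A smaller trend remained in the fitted differences. The length-adjusted median was 0.5 for genes under 1000 bases, with 597 higher and 314 lower. For genes of 8000 bases or more it was 0.05, with 943 higher and 721 lower, and for all genes tested 0.17. Length-adjusted calls are therefore not free of gene length. A named gene given with no length-adjusted value kept its call, passed in the same direction or not passed, under this adjustment.

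After that adjustment 6723 genes (38.2%) were higher and 4051 (23%) lower, 61.2% in all. Scaled by library totals alone, 3455 (19.6%) were higher and 7412 (42.1%) lower, 61.8% in all. Counts of list members given below under either scaling are to be read beside that scaling's shares of all genes. As deposited and length-adjusted alike, the test called 4991 genes (28.4%) higher and 3753 (21.3%) lower. Of the 5592 genes lower as deposited, 1660 did not pass after length adjustment and 179 passed as higher. Of the 5448 higher genes 457 did not pass, and 0 passed as lower. The share of calls that were higher was 49.3% as deposited, 62.4% after length adjustment and 31.8% with totals alone. These scalings shifted the all-gene median log2 difference by 0.22 and -0.34.

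**Figure D1:**
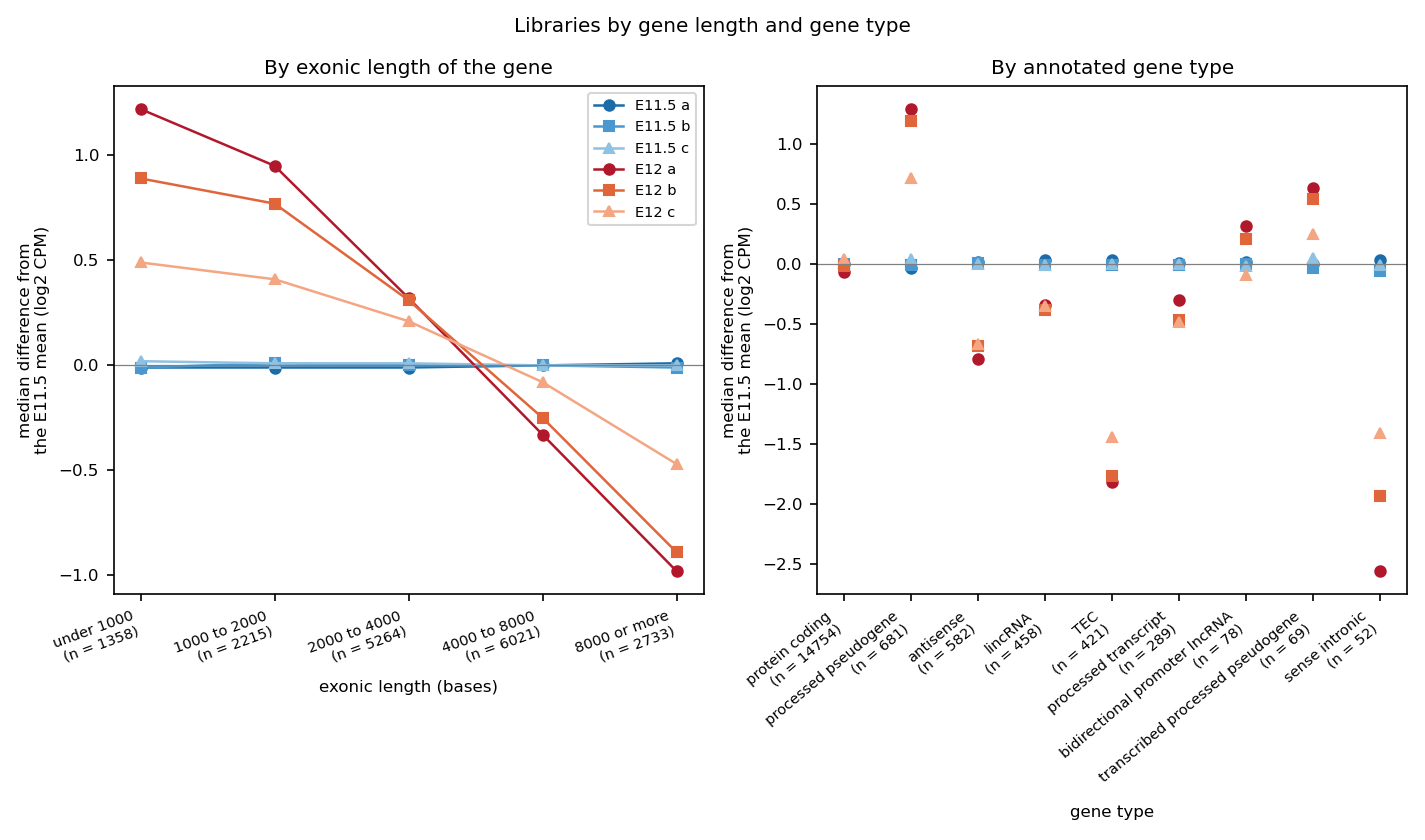
Median difference of each library from the E11.5 mean (log2 CPM) for genes grouped by exonic length in bases (left) and by annotated gene type (right), with the number of genes tested under each group. Lines for E12 libraries a, b and c fall from 1.22, 0.89 and 0.49 in the shortest genes to -0.98, -0.89 and -0.47 in the longest, while the E11.5 libraries lie on 0, and genes of type TEC and sense intronic lie lowest at E12.

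Gene type also divided the changes, beyond length. Genes that the annotation marks TEC (unspliced loci of uncertain status) fell in 268 of 421 cases and rose in 25, with a median of -1.85, and sense intronic transcripts, which lie inside introns of other genes, fell in 42 of 52 and rose in 1. After length adjustment 281 TEC genes and 43 sense intronic ones were lower. Antisense genes were lower in 44.7% of cases and higher in 12.7%, and without the strand setting of the counting their reads cannot be told from those of the gene opposite. Processed pseudogenes, copies of spliced messages, went the other way, with 385 of 681 higher and 85 lower, and reads can be shared between such a copy and its parent gene.

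The largest fall among genes passing under both scalings was in Ibsp (ENSMUSG00000029306, GRCm38 chromosome 5, 104299171 to 104311469), which encodes bone sialoprotein, a matrix protein of mineralizing bone. Ibsp stood at 14.7, 16 and 15.2 CPM in the E11.5 libraries and at 0, 0 and 0.11 CPM in the E12 libraries a, b and c. Every E11.5 library was high and every E12 library at or next to 0, on 849 counts against 2. From these pooled counts the level was 335-fold lower at E12, with a 95% counting interval of 92.5 to 2771, and the fitted difference was -8.17 ± 0.42 (SE; adjusted p = 0.000197). Second came Matn1 (ENSMUSG00000040533, chromosome 4, 130944385 to 130955475), matrilin 1, a protein of cartilage matrix, at 11.9 to 15.7 CPM in the E11.5 libraries against 0.39, 0.158 and 0.11 at E12 (-5.99 ± 0.34, adjusted p = 0.000214). The largest rise was in Cryaa (ENSMUSG00000024041, chromosome 17, 31677807 to 31681733), alpha A crystallin, the main chaperone of the eye lens. Its levels were 0, 0.102 and 0 CPM at E11.5 and 26.8, 22.6 and 14.7 at E12, on 2 counts against 897, a 568-fold rise with a counting interval of 157 to 4699.7 (fitted difference 8.93 ± 0.55, adjusted p = 0.000214).

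The 250 bases before the RefSeq start of these 3 genes are shown because they are the regulatory sequence nearest to the extremes of the comparison (GRCm38.p6, plus strand, Ibsp chr5:104299037-104299286, Matn1 chr4:130944135-130944384, Cryaa chr17:31677681-31677930). For Ibsp and Cryaa the GENCODE record of the gene starts inside the window. Capitals mark every match, on either strand, to ACCACA (bound by RUNX factors), TATAAA (the TATA box), CCAAT (the CCAAT box) or TGCTGAC (bound by large MAF factors, which include regulators of lens crystallins).
Ibsp: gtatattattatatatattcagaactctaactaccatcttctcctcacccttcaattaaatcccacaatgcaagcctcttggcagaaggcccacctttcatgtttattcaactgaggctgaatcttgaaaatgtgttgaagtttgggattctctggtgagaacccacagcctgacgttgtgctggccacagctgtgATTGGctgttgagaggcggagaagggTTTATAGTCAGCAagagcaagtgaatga
Matn1: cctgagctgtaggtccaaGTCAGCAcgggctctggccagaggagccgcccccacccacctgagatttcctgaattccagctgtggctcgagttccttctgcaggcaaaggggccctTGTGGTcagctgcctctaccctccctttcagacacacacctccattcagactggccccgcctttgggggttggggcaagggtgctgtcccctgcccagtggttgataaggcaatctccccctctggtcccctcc
Cryaa: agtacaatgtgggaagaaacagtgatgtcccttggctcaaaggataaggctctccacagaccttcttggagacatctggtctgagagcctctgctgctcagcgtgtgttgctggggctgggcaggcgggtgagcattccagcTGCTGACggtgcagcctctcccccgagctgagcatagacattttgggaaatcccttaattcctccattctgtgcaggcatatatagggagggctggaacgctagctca
The Ibsp window held TATAAA at 28 and CCAAT at 54 bases before the start, both on the minus strand, and TGCTGAC, also on the minus strand, next to the first of these with no shared base. Matn1 held ACCACA and TGCTGAC, each on the minus strand, and Cryaa held TGCTGAC on the plus strand. Among all 32851 RefSeq promoter windows of this length, 14% held ACCACA, 12.4% TATAAA, 33.8% CCAAT and 3.81% TGCTGAC, so all but the last are common sequences. A match describes the letters and not a bound site.

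Among the 12 largest falls, 8 others belong to 3 kinds of gene. The naming rule took only genes whose groups did not overlap. Genes of neurons and synapses were the most frequent: Grin2b and Grm5, glutamate receptors, Scn10a, a sodium channel of sensory neurons, Tnr, a matrix protein of the nervous system, and Csmd1 and Csmd3, large membrane proteins of the brain. Grin2b was at 54.1, 46.7 and 47.2 CPM at E11.5 and at 0.936, 1.42 and 2.92 at E12 (-4.74 ± 0.34, adjusted p = 0.00028). Its exons sum to 24842 bases, and its length-adjusted difference was -3.25. Acan, or aggrecan, the large proteoglycan of cartilage, was at 8.4, 8.64 and 7.65 against 0.234, 0.868 and 0.331 CPM (-4.13 ± 0.37). Dnah6, a dynein heavy chain of motile cilia, fell by 4.51 ± 0.27 on the log2 scale. The remaining 2 of the 12, Srrm4os, a noncoding RNA, and Fam135b, fell by 5.47 and 4.03.

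The 12 largest rises held several genes of the lens and of red cells. Cryba1, a second lens crystallin, was at 0.117, 0.205 and 0 CPM at E11.5 and 26, 18 and 13.1 at E12. En2 (chromosome 5, 28165694 to 28172166), a homeobox gene of the midbrain and hindbrain, was at 0.117, 0.153 and 0.481 against 13.6, 14.2 and 18 CPM (5.88 ± 0.38, adjusted p = 0.000214). Aldh1a1, a retinaldehyde dehydrogenase that makes retinoic acid, was at 0.176, 0.665 and 0.909 against 30.9, 36.1 and 28.9 CPM (5.73 ± 0.36). Library c was the highest E12 library for En2. Genes of red cells or the blood among the 12 were Hbb-bh1, Hba-x, Hemgn and Rhd, and Ncf4 and S100a8 are genes of phagocytes. Cited4, a transcriptional cofactor, rose by 3.93 ± 0.5, and Mir703, a short locus of 109 bases, by 3.81 ± 0.85 with 11.2, 5.84 and 1.05 CPM in libraries a, b and c.

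**Figure D2:**
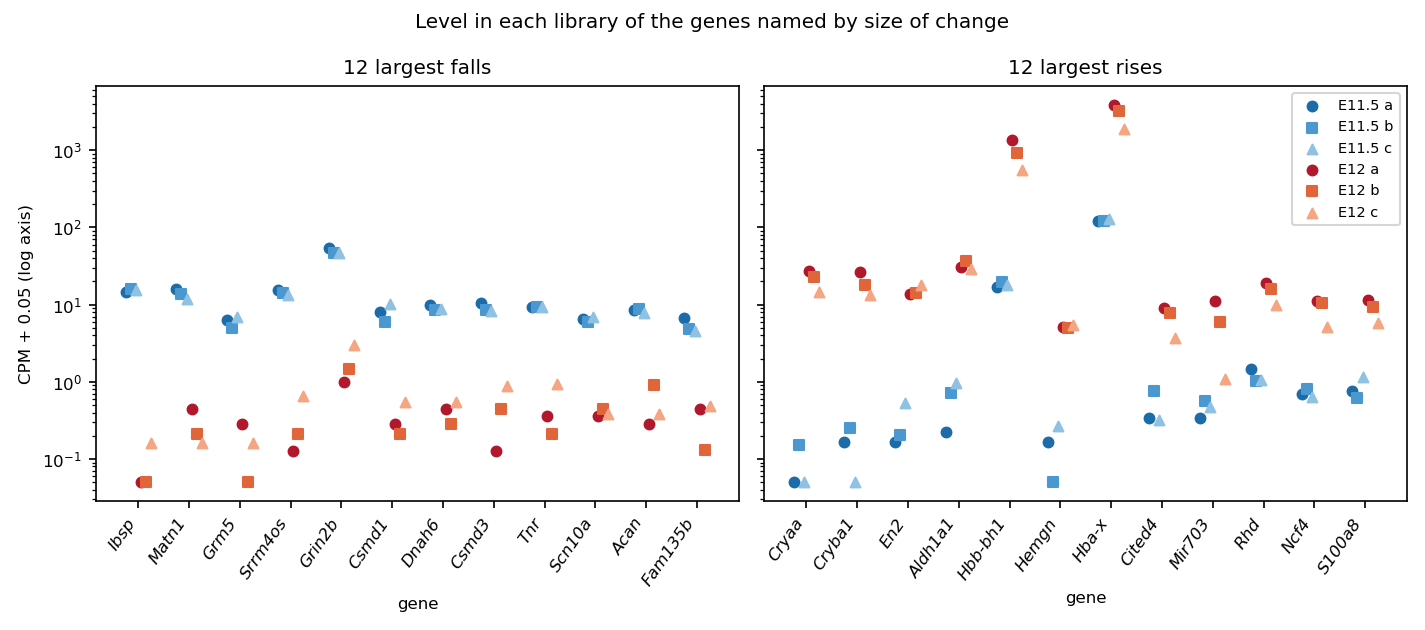
CPM plus 0.05 on a log axis in each of the 6 libraries for the 12 genes with the largest falls (left) and the 12 with the largest rises (right) among genes that passed with and without length adjustment; each point is 1 library. The rule that named the 24 genes required that the E11.5 points (blue) and the E12 points (red) do not overlap. For Ibsp they lie at 14.7 to 16 against 0 to 0.11 CPM.

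Bone genes went several ways. Of 21 osteoblast genes listed, 15 were tested, 7 fell and 1 rose, with a median fitted difference of -0.05, as for all genes. In E12 libraries a, b and c the list medians were -0.45, -0.2 and -0.31, below the -0.09, -0.05 and 0.0 of all genes. Length-adjusted 6 fell and 2 rose, and with totals alone 7 fell and 0 rose. Mepe, a gene of mature bone cells, had no count in any of the 6 libraries. Sp7 was at 5.58, 5.27 and 6.36 CPM at E11.5 and 1.25, 1.42 and 1.82 at E12 (-1.92 ± 0.22, adjusted p = 0.000865), and the groups were far apart. Phex, a peptidase of phosphate balance, was at 0.998, 1.18 and 1.44 against 0.078, 0 and 0.276 CPM (-3.09 ± 0.63, adjusted p = 0.00446).

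Other bone genes differed little or depended on the scaling. Runx2, at 14.6, 13 and 10.7 against 9.28, 7.97 and 10.2 CPM, was lower by a small margin (-0.48 ± 0.17, adjusted p = 0.0426) and did not pass after length adjustment, where its difference was 0.16 (adjusted p = 0.413). Leaving out E11.5 library a or b, or E12 library a or b, also ended the call for Runx2, with differences of -0.37 to -0.47. Alpl, a phosphatase needed for mineralization, stood at 12.7 ± 1.3 CPM (SD, n = 3) at E11.5 and at 13.8, 11 and 12.6 CPM at E12, overlapping values with a difference of -0.03 ± 0.15 (adjusted p = 0.883). Spp1, or osteopontin, overlapped too (6.11, 6.91 and 5.03 against 9.36, 8.21 and 4.36 CPM, 0.27 ± 0.29, adjusted p = 0.449), but passed as higher without E12 library c (0.59, adjusted p = 0.0143). Col1a1, the main collagen of bone, was at 433, 435 and 465 CPM at E11.5 and at 257, 413 and 617 at E12, so that libraries a and c lay on opposite sides of the E11.5 values. The 1 rise, named after its values were seen, was in Sparc, or osteonectin, at 304, 299 and 309.5 against 363, 388 and 460.1 CPM (0.41 ± 0.13, adjusted p = 0.0276). Its length-adjusted difference of 0.49 passed as well, and with totals alone it was 0.07 and did not.

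Of 9 tested genes of phosphate and mineral handling, 4 fell and 0 rose (median -0.52; length-adjusted 4 fell, 1 rose and the median was -0.07). Besides Phex these were Smpd3, a sphingomyelinase needed for mineralization and vesicle release (45.4, 46.9 and 48.1 against 23.6, 21.7 and 30.4 CPM, -0.89 ± 0.15), Fam20c, a kinase of secreted proteins (-0.83 ± 0.14), and Enpp1, which makes pyrophosphate (-0.6 ± 0.17, and 0.16 length-adjusted, where it did not pass). Enpp1 also did not pass without E11.5 library c (-0.48) or without E12 library b (-0.57). Slc13a5, the plasma membrane importer of citrate, was at 1.35, 1.38 and 0.802 CPM at E11.5 and 0.156, 0.237 and 0.221 at E12, on 65 counts against 9 (-2.47 ± 0.43, adjusted p = 0.0026). It was the only one of 11 tested genes of citrate handling that fell, and 5 rose. The rises included Slc25a1, the mitochondrial citrate carrier (48.8, 46.8 and 49.7 against 106, 98.2 and 72.6 CPM, 0.93 ± 0.16), Idh2, mitochondrial isocitrate dehydrogenase (0.81 ± 0.14), and Slc39a1, a zinc importer (0.7 ± 0.11). With totals alone 2 citrate genes rose and 2 fell.

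Transcription factors of the cranial mesenchyme were mostly higher at E12. Of 26 listed and tested, 19 rose and 2 fell, with a median of 0.91 against -0.05 for all genes (length-adjusted, 18 rose and 1 fell, and with totals alone 13 rose and 4 fell). Msx2 was at 7.57, 6.75 and 4.54 CPM at E11.5 and 53.8, 47.1 and 38.7 at E12 (2.89 ± 0.22, adjusted p = 0.000316). Twist1, whose loss closes sutures early, was at 23.1, 22.3 and 21 against 78.4, 61.9 and 66.6 CPM (1.64 ± 0.13, adjusted p = 0.000332). En1, an engrailed homeobox factor, was at 2.17, 1.33 and 2.3 against 7.1, 8.28 and 9.54 CPM (2.11 ± 0.25). All E12 libraries were above all E11.5 libraries for these genes and for Prrx2 (2.02 ± 0.25) and Alx1 (1.81 ± 0.16), as for 34.6% of all genes tested. The list medians of the 3 E12 libraries were alike here, at 0.93, 0.8 and 0.98 in a, b and c. Single members differed, with Prrx2 at 73.6, 56.1 and 36 CPM in a, b and c and En1 in the opposite order.

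Falls outnumbered rises among genes of the fibrillar matrix as deposited, but not length-adjusted or in E12 library c alone. Of 24 genes, 11 fell, 2 rose and 11 did not pass (median -0.46), against 8 falls and 8 rises when length-adjusted (median 0.11) and 8 falls and 10 rises with library c alone, and the medians of the E12 libraries were -0.9, -0.69 and -0.04. Postn, or periostin, was at 166, 162 and 157 CPM at E11.5 and 34.7, 36.4 and 44.8 at E12 (-2.06 ± 0.13, length-adjusted -1.44). Aspn, or asporin, with an exonic length of 2354 bases, was at 15.4, 14.8 and 13.7 against 5.3, 4.02 and 2.98 CPM (-1.85 ± 0.22, length-adjusted -2.07). Col12a1 and Thbs2, at -1.72 and -1.54, were among the other falls. Among 19 genes of collagen folding and crosslinking 6 rose and 4 fell, beside 31% and 31.8% of all genes tested (7 and 3 length-adjusted, 3 and 6 with totals alone). The crosslinking enzyme Lox fell (107, 99.4 and 101 against 36.3, 40.6 and 53.6 CPM, -1.23 ± 0.16), as did Adamts2, which trims procollagen (-1.52), and P4hb, a subunit of prolyl hydroxylase, and Pcolce, an enhancer of procollagen processing, rose by 0.99 and 0.95.

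Cartilage genes were mostly lower. Of 16 tested, 10 fell and 2 rose, with a median of -0.72 (length-adjusted 10 fell and 4 rose). Beside Matn1 and Acan, Col11a2 was at 41.4, 45.2 and 39.1 CPM against 8.5, 12 and 7 (-2.2 ± 0.2), and Matn4 at 27.8, 28 and 29.6 against 6.79, 9.07 and 5.24 (-2.03 ± 0.2). These 4 were named for the size of their change. Sox9, another cartilage marker, named after its values were seen, went the other way. It was at 60.4, 58 and 62.8 against 89.2, 66.7 and 88.7 CPM (0.43, adjusted p = 0.0295, length-adjusted 0.57). The summed level of the list was 883 to 888 CPM at E11.5 and 506 to 713 at E12. In a tendon list of 7, Scx, Tnmd and Mkx rose (1.19, 1.42 and 1.03) and 0 fell, while Kera, Thbs4, Fmod and Egr1 did not pass, with -0.95, 0.26, 0.44 and -0.31. Scx did not pass without E11.5 library a (1.11) or c (1.19).

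Markers of contractile cells went both ways. Of 10 genes of smooth muscle and pericytes 4 rose and 3 fell, near the 31% and 31.8% of all genes tested. Tagln, which binds actin in smooth muscle, was at 13.9, 13.6 and 14 CPM against 97.4, 79.8 and 56.6 (2.49 ± 0.21). Cnn1 and Myl9 rose by 2.95 and 2.39, and Abcc9, a channel subunit of pericytes, fell by 1.87 ± 0.21. Skeletal muscle genes were lower in 5 of 17 cases, near the 31.8% of all genes tested, and higher in 1, Pax7, a factor of muscle progenitors and dorsal neural tube (2.64, 1.94 and 2.25 against 6.71, 7.89 and 9.37 CPM). The falls included Myh8 (-1.97), Myh3 (-1.59) and Ttn, titin, whose exons sum to 117334 bases and whose difference went from -3.93 to -0.8 on length adjustment.

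**Figure D3:**
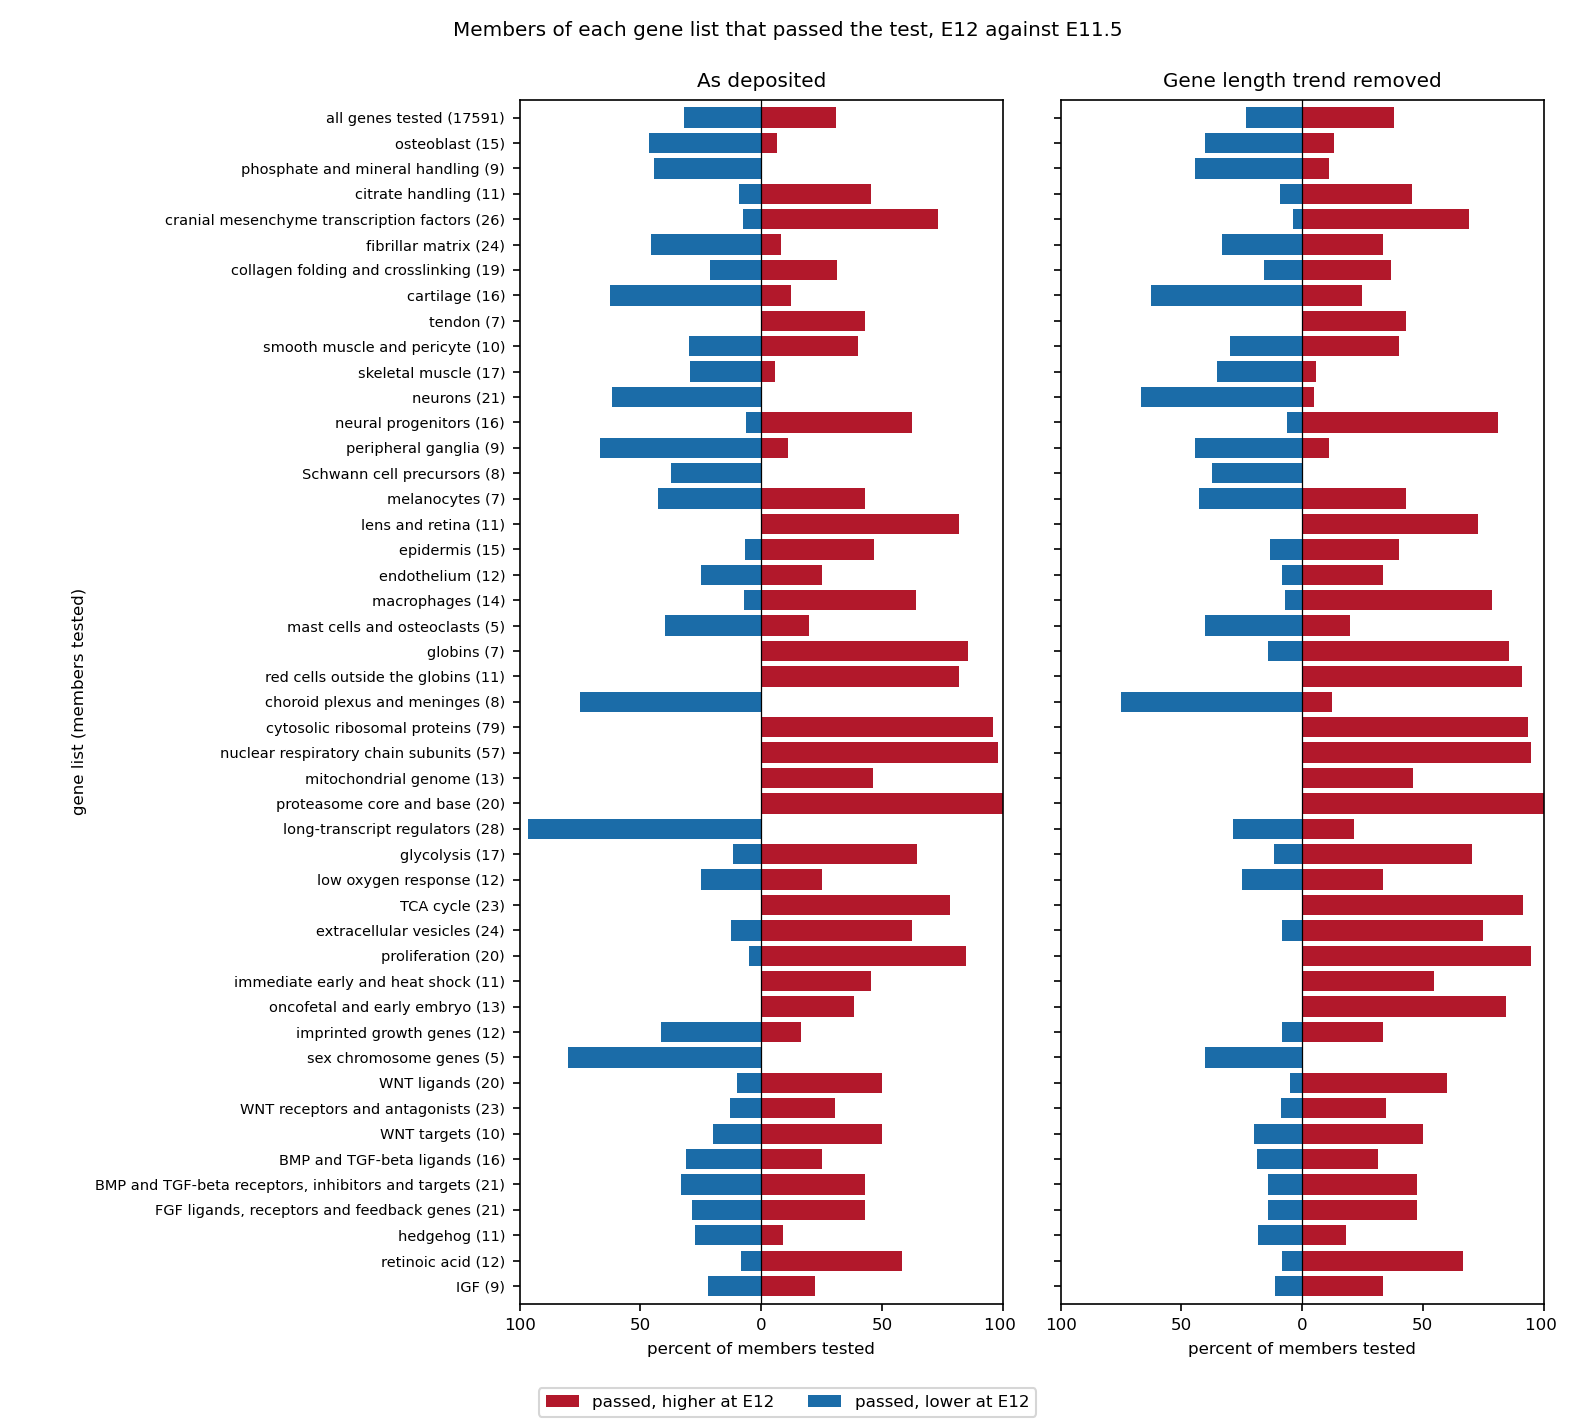
Percent of the tested members of each gene list that passed as higher (red, to the right) or lower (blue, to the left) at E12, as deposited and after length adjustment, for lists with 5 or more members tested; the number tested is in brackets and the first row gives all genes tested. Ribosomal proteins, respiratory chain and proteasome are almost wholly red in both panels, whereas the long-transcript regulators go from 27 of 28 lower to 8 lower and 6 higher.

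Genes of the lens and retina rose as a list. Of 14 listed 11 were tested, 9 rose and 0 fell, with a median of 2.88 (length-adjusted 8 rose). Their summed level was 12.1 CPM in the lowest E11.5 library, with the others close to it, and 117, 92.1 and 65.2 CPM in E12 libraries a, b and c. Cryba2 had 1 count at E11.5 and 83 at E12, a 105-fold rise with a counting interval of 18.4 to 4203. In the melanocyte list 3 of 7 tested genes rose and 3 fell. Its summed level was 142 to 153 CPM at E11.5 and 106 to 117 at E12. Pmel, which forms the fibrils of pigment granules, rose (4.7, 4.35 and 4.92 against 22, 18.3 and 16.9 CPM, 2.03 ± 0.16). So did Tyr and Tyrp1, enzymes of melanin synthesis, by 1.17 each. Tyrp1 did not pass when length-adjusted (1.07, adjusted p = 0.0707) or with any 1 of the 6 libraries left out, and Tyr not without E11.5 library a (0.95). Mitf and Kit, also on that list, fell by 1.09 and 0.93.

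Some genes known from the midbrain and hindbrain boundary, like En2, are given as a description, since Cnpy1, Pax2, Pax5 and Pax8 were chosen after their values were seen. Cnpy1 was at 3.64, 2.56 and 2.94 CPM at E11.5 and 23.6, 20.7 and 26.8 at E12 (2.96 ± 0.19, adjusted p = 0.000214). Wnt1, a ligand made at that boundary, was at 0.235, 0 and 0.588 against 3.35, 3.55 and 4.25 CPM (3.74 ± 0.64), and Pax5 at 0.117, 0.256 and 0.428 against 2.65, 1.89 and 5.02 (3.55 ± 0.54). Fgf8, at 2.23, 1.53 and 1.18 against 14.6, 10.3 and 6.23 CPM, and Fgf17, at 5.17, 8.7 and 7.54 against 44.6, 38.3 and 34.7, are growth factors of the same region. For each of these 5 genes the groups did not overlap, as for 72% of all genes tested. Pax2 did not pass (0.82 ± 0.44, adjusted p = 0.14), and Pax8 was too low to be tested.

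Progenitor and neuron genes of the nervous system changed in opposite directions. Of 16 genes of neural progenitors 10 rose and 1 fell (median 0.64, and 13 rose when length-adjusted), and of 21 neuron genes 13 fell and 0 rose (median -0.58, length-adjusted 14 fell and 1 rose). Sox2, which maintains progenitors, was at 89.4, 89.9 and 86 CPM at E11.5 and 223, 199 and 203 at E12 (1.24 ± 0.11), and Hes5, a Notch target, at 31.8, 34.2 and 29.9 against 135, 96.8 and 82.5 (1.71 ± 0.19). Dcx, doublecortin of migrating neurons, was at 584, 546 and 532 against 122, 111 and 161 CPM (-2.08 ± 0.17, length-adjusted -1.15), and Snap25, a synaptic fusion protein, at 39.6, 36.9 and 39.7 against at most 15.8 CPM at E12 (-1.42 ± 0.12). Of 9 genes of peripheral ganglia 6 fell and 1 rose (4 and 1 length-adjusted). Prph, peripherin of sensory and autonomic neurons, was at 32.6, 31 and 33.5 against 5.54, 5.05 and 3.03 CPM (-2.85 ± 0.22). Among 8 genes of Schwann cell precursors 3 fell, among them the receptor Erbb3 (-1.23 ± 0.22), and 0 rose, beside 31.8% and 31% of all genes tested.

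Genes of the choroid plexus and meninges, the tissues that make and contain the fluid around the brain, were lower in 6 of 8 cases and higher in 0 (median -1.32, length-adjusted -1.36). Ptgds, a prostaglandin synthase of the meninges, was at 9.45, 9.21 and 7.91 CPM at E11.5 and 1.33, 1.18 and 0.441 at E12 (-3.22 ± 0.34). Kcne2, a potassium channel subunit of the choroid plexus, was at 17.8, 16 and 19.3 against 3.59, 2.84 and 2.43 CPM (-2.59 ± 0.19), and Ttr, transthyretin, at 467, 479 and 473 against 235, 164 and 104 (-1.5 ± 0.27). The summed level of the list was 819.8 to 836 CPM at E11.5 and 482 to 538 at E12, with no overlap. Bcan, brevican of the brain matrix, chosen after its values were seen, fell from 21.5, 22.6 and 20.2 to 1.17, 1.34 and 1.6 CPM (-3.94 ± 0.17). The part of these surrounding tissues in the bone and mesenchyme results was not tested.

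Globins and other red cell genes were higher at E12. Of 7 globins 6 rose and 0 fell (median 3.17, length-adjusted 6 rose and 1 fell), and of 11 other red cell genes 9 rose and 0 fell (median 2.18). Globins took 0.278% to 0.297% of counts at E11.5 and 2.418%, 2.043% and 1.099% in E12 libraries a, b and c, a mean of 1.853% ± 0.68 (SD, n = 3) against 0.288% ± 0.01 (exact permutation p = 0.1, two-sided, the smallest possible). Hbb-bh1, an embryonic beta-like globin, was at 16.9, 19.6 and 18.1 CPM against 1347, 916 and 557 (5.69 ± 0.36), and Hba-x, the embryonic zeta globin, at 121, 120.3 and 130.1 against 3860.2, 3261 and 1903 (4.6 ± 0.3). The adult beta globin Hbb-bs overlapped, at 399, 427 and 434 against 513, 352 and 161 CPM (-0.3 ± 0.36, adjusted p = 0.496), and its length-adjusted difference of -0.84 was the fall in that count (adjusted p = 0.0236). The adult copies Hba-a1 and Hba-a2, and likewise Hbb-bs and Hbb-bt, are near-identical and can share reads. Red cell genes outside the globins did not all follow the order of the globins across the E12 libraries, as Hemgn was at 5.15, 4.89 and 5.4 CPM in a, b and c and Rhag, of the red cell membrane, at 3.43, 3.94 and 4.14. Levels at E11.5 were at most 0.214 CPM for Hemgn and 0.47 CPM for Rhag.

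Lists for other blood and lining cells were mixed. Of 14 macrophage genes 9 rose and 1 fell (median 1.05; length-adjusted, 11 and 1). Pf4 was at 9.45, 10.2 and 8.82 CPM against 86.9, 57.4 and 31 (2.62 ± 0.35), and C1qa, a complement subunit, rose by 1.8 ± 0.37. In a list of 5 tested genes of mast cells and osteoclasts, Acp5, an acid phosphatase of osteoclasts, rose from 2.29, 1.02 and 1.28 to 19.2, 15.5 and 13.4 CPM (3.39 ± 0.31), and Mmp9 fell by 2.01 ± 0.21. The endothelial list had 3 rises and 3 falls among 12, beside 31% and 31.8% of all genes tested. Cldn5, a tight junction protein, had a difference of 1.15 ± 0.28 and the receptor Tek of -0.78 ± 0.15. Length-adjusted 4 endothelial genes rose and 1 fell, and with totals alone 2 rose and 5 fell. Epidermal genes rose in 7 of 15 cases and fell in 1 (6 and 2 length-adjusted, 4 and 5 with totals alone), led by Krt19, a simple epithelial keratin (2.76, 3.27 and 2.89 against 23.7, 20 and 10.6 CPM, 2.6 ± 0.31) and Sfn (1.97 ± 0.25).

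Nearly all ribosomal protein, nuclear respiratory chain and proteasome genes rose. Of 79 cytosolic ribosomal proteins 76 rose and 0 fell, with a median of 1.71 (length-adjusted, 74 rose and the median was 1.47). They took 2.741%, 2.819% and 2.829% of counts at E11.5 and 9.672%, 7.355% and 4.797% in E12 libraries a, b and c, a mean of 2.796% ± 0.048 against 7.275% ± 2.439 (SD, n = 3; exact permutation p = 0.1, two-sided). The list medians of the 3 E12 libraries were 2.27, 1.67 and 0.97, so the rise was present in each but more than 2-fold apart between a and c. Rps28 showed the widest change, at 13.7, 13.6 and 17.5 CPM against 165, 123 and 33.4 (2.84 ± 0.53). Both ends of the list's range of exonic length, which need not be the length of the message, rose. The shortest members, Rpl36, Rplp1 and Rpl38, had differences of 2.02, 1.93 and 2.15, and length-adjusted of 1.62, 1.47 and 1.64. The longest, Rps19, Rps24 and Rps15a, had 2.09, 1.81 and 1.63, and length-adjusted 2.33, 2.26 and 2.07. Many ribosomal protein genes have processed pseudogenes, with which reads can be shared.

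The nuclear genes of the respiratory chain followed, with 56 of 57 higher and 0 lower (median 1.52; length-adjusted, 54 higher), led by Atp5e, a subunit of ATP synthase (76.4, 86.1 and 92.8 against 803, 448 and 207 CPM, 2.51 ± 0.44). All 20 tested genes of the proteasome, which degrades tagged proteins, rose as deposited, length-adjusted and with totals alone (median 1.5), with Psmb4 at 165, 171 and 168 against 935, 670.2 and 335 CPM. In the TCA cycle 18 of 23 rose and 0 fell (12 and 0 with totals alone), and in glycolysis 11 of 17 rose and 2 fell. Ldha, lactate dehydrogenase, was at 449, 455 and 472 against 1383, 1318 and 933 CPM (1.4 ± 0.18), while Pfkp, a phosphofructokinase of 13401 bases, fell from 118, 118 and 115 to 13.6, 16.5 and 25 (-2.66 ± 0.22, length-adjusted -1.71). Of the 13 genes of the mitochondrial genome 6 were higher and 0 lower, with a share of counts of 1.112% ± 0.065 against 1.164% ± 0.174 (SD, n = 3; exact permutation p = 0.9, two-sided). Of 12 genes of the response to low oxygen 3 rose and 3 fell (4 and 3 length-adjusted, 2 and 5 with totals alone). Beside this, 31% and 31.8% of all genes tested rose and fell. Vegfa was among the falls (-0.99 ± 0.13).

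Of 24 genes of extracellular vesicles, the carriers named in the series title, 15 rose and 3 fell (median 0.6; length-adjusted 18 and 2, and with totals alone 9 and 3). Chmp4b, of the machinery that buds vesicles, was at 112, 115 and 110.3 CPM against 373, 316 and 209 (1.41 ± 0.21), and Cd63, a tetraspanin of vesicles, at 75.7, 73.7 and 79.4 against 211, 177 and 114 (1.13 ± 0.22). Smpd3, whose product drives vesicle release, was among the falls. Genes of proliferation rose in 17 of 20 cases and fell in 1 (median 0.92; length-adjusted 19 and 0, and with totals alone 12 and 1). Birc5, or survivin, was at 55.7, 59.3 and 56 against 345, 220 and 125 CPM (2.01 ± 0.33), and Ccnb2, a mitotic cyclin, rose by 1.58 ± 0.19. Early embryonic genes included Lin28a, a regulator of let-7 (0.294, 0.716 and 0.481 against 3.2, 3.39 and 3.47 CPM, 2.72 ± 0.32), and Hmga2 (57, 53.1 and 52.7 against 147, 133 and 198, 1.55 ± 0.17). In that list 5 of 13 rose, and 11 did when length-adjusted.

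Genes with long messages showed the reverse. Of 28 chromatin regulators and ubiquitin ligases, with a median exonic length of 16349 bases, 27 fell and 0 rose (median -1.28), and Chd4, the shortest of them at 8019 bases, did not pass (0.06; 0.61 length-adjusted, which passed as higher). Length-adjusted, 8 fell and 6 rose with a median of -0.14, so most of these calls were lost with the trend. Kmt2d, a histone methyltransferase, was at 261, 277 and 299 CPM against 46.8, 55.9 and 90.1 (-2.12 ± 0.24) and still fell when length-adjusted (-0.81, adjusted p = 0.00139). Huwe1, a ubiquitin ligase of 23507 bases, was at 752, 695 and 751 against 136, 162 and 341 CPM (-1.78 ± 0.33), with -0.35 length-adjusted (adjusted p = 0.131). Herc1, of 27464 bases, went from -1.68 to -0.08.

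Several long noncoding RNAs and 4 of 5 sex chromosome genes fell. Xist, the RNA that coats the inactive X chromosome, was at 1156, 1142 and 1117 CPM against 219, 200.2 and 295 (-2.26 ± 0.18, length-adjusted -1.02, adjusted p = 0.000583). Of 4 genes of the Y chromosome, Ddx3y fell with and without length adjustment (-0.64 and -0.37), Kdm5d and Uty as deposited alone (-0.99 and -0.82; 0.07 and -0.12 length-adjusted; with Uty lost without E12 library b at -0.75), and Eif2s3y did not pass (47.6, 46 and 46.6 against 58.7, 51.5 and 31.8 CPM). Xist and Y-linked messages were thus both present in each of the 6 libraries. Malat1, a nuclear RNA chosen after its values were seen, was at 752, 714 and 684 against 149.5, 123 and 172 CPM (-2.27 ± 0.16, length-adjusted -1.81), and Neat1, chosen likewise, fell by 0.96 and was 0.44 higher when length-adjusted (adjusted p = 0.04). Meg3, an imprinted long RNA, was at 1329, 1279 and 1292 against 393, 356 and 306 CPM (-1.89 ± 0.15, length-adjusted -0.58, adjusted p = 0.0549). Of 12 imprinted growth genes 5 fell and 2 rose, against 1 and 4 when length-adjusted, and Rian turned from -0.87 to 0.97.

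**Figure D4:**
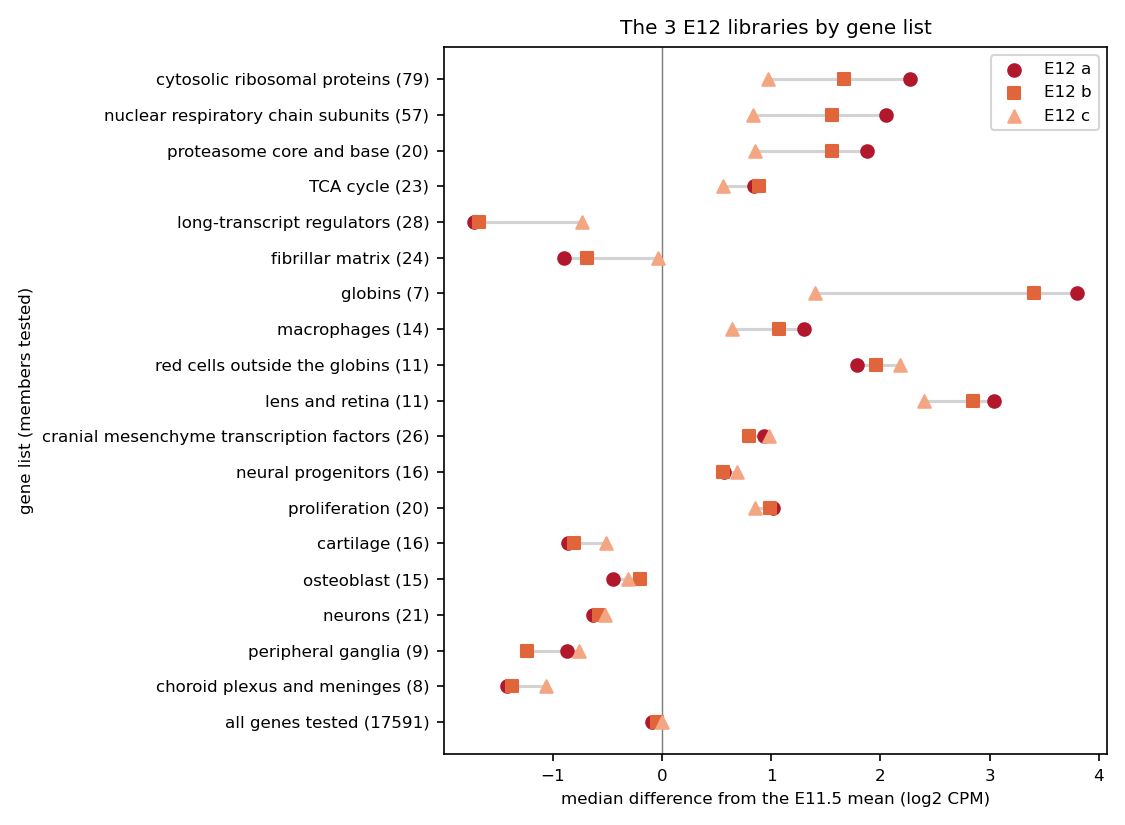
Median difference from the E11.5 mean (log2 CPM) over the tested members of each list, with 1 point for each E12 library (a, b and c) and a grey line joining them. For ribosomal proteins the points lie at 2.27, 1.67 and 0.97, whereas for the cranial mesenchyme factors they lie at 0.93, 0.8 and 0.98.

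The spread between the E12 libraries was thus uneven across lists. Ribosomal proteins, respiratory chain, proteasome, globins and long-message genes were ordered a, b, c by the size of their difference from E11.5. Lists for mesenchymal factors, neural progenitors, neurons and proliferation had medians within 0.2 of each other in the 3 libraries. Single members of these lists could differ more, as Birc5 did at 345, 220 and 125 CPM in a, b and c.

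Signalling genes changed in both directions within most pathways, as did all genes tested, of which 31% rose and 31.8% fell. Length-adjusted, 38.2% of all genes rose and 23% fell, and with totals alone 19.6% rose and 42.1% fell. A list with more falls under totals alone is to be read beside the latter shares. Of 20 WNT ligands and R-spondins 10 rose and 2 fell (length-adjusted 12 and 1): besides Wnt1, Wnt10a rose (1.47, 1.53 and 1.39 against 4.84, 5.05 and 3.42 CPM, 1.58 ± 0.24), as did Wnt5b (1.28 ± 0.13), and Wnt2b fell (24.1, 19.6 and 23.4 against 3.59, 6.47 and 11.3 CPM, -1.63 ± 0.36). Of 23 receptors and antagonists 7 rose and 3 fell, and 8 rose and 2 fell length-adjusted, against 3 and 9 with totals alone. The secreted inhibitor Dkk1 was at 2.82, 1.69 and 2.25 against 12.1, 9.78 and 7.88 CPM (2.14 ± 0.26). Of 10 WNT targets 5 rose and 2 fell (2 and 3 with totals alone): Lef1, the nuclear partner of beta-catenin, was at 17.4, 19.2 and 16.6 against 46.4, 41.3 and 38.7 CPM (1.25 ± 0.13), and Lgr5, a receptor for R-spondins, fell by 2.06 ± 0.25.

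Among 16 ligands of the BMP and TGF-beta family 4 rose and 5 fell (length-adjusted 5 and 3, with totals alone 2 and 5). Bmp4 was at 9.22, 10.6 and 11 CPM against 20.2, 21.7 and 21.2 (1.04 ± 0.13), Tgfb1 rose by 1.16 ± 0.15, and Bmp3, which opposes bone formation, and Inhbb fell by 1.54 and 1.56. Of 21 receptors, inhibitors and targets 9 rose and 7 fell (10 and 3 length-adjusted, 6 and 10 with totals alone). The target genes Id1 and Id3 rose, with Id3 at 68.6, 72.7 and 73 against 402, 301 and 209 CPM (2.09 ± 0.23), as did the inhibitor Fst (1.24 ± 0.19), whereas the inhibitor Chrd fell (-1.2 ± 0.18). In the FGF list of 21, 9 rose and 6 fell (10 and 3 length-adjusted, 6 and 9 with totals alone). Fgf15, a ligand of the neural tube, was at 10.3, 7.57 and 7.81 against 32.1, 35.1 and 32.6 CPM (1.96 ± 0.16), and the receptor Fgfr4 fell from 2.64, 1.43 and 3.48 to 0.468, 0.237 and 0.662 (-2.39 ± 0.48).

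The hedgehog list had 3 falls and 1 rise among 11 (2 and 2 when length-adjusted), no larger a share of falls than the 31.8% of all genes. The ligand Shh fell (5.7, 5.27 and 4.87 against 2.5, 3.23 and 3.75 CPM, -0.73 ± 0.21), as did its receptor and target Ptch1 (-0.81 ± 0.23; 0.19 length-adjusted, not passed), and the coreceptor Gas1 rose by 0.81 ± 0.11. Shh did not pass without E11.5 library a or b or E12 library b (-0.67 to -0.73), and Ptch1 not without E11.5 library a or c or E12 library b (-0.77 to -0.83). The retinoic acid list had 7 of 12 higher and 1 lower (median 0.52). Beside Aldh1a1, the binding protein Crabp2 was at 53.7, 56.1 and 58.2 against 366, 305 and 178 CPM (2.34 ± 0.26) and Cyp26a1, which degrades retinoic acid, rose by 2.32 ± 0.38. Of 9 IGF genes 2 rose and 2 fell (3 and 1 length-adjusted, 2 and 6 with totals alone). The binding proteins Igfbp2 and Igfbp4 rose by 1.87 and 1.34, and the receptors Igf1r and Igf2r fell (-1.1 and -0.77) but had length-adjusted differences of 0.06 and -0.13 that did not pass. Leaving out any 1 library other than E12 library c ended the call for Igf2r (-0.51 to -0.79). Only 3 of 39 Hox genes were high enough to be tested, and Hoxd1 was at 4.34, 4.45 and 2.89 against 0.546, 0.789 and 0.496 CPM (-2.68 ± 0.32).

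Levels at the neighbouring stages place these differences, on a scale common to all 33 libraries and with no test. In order of stage from E11 to E12.5, Ibsp averaged 0.0526, 15.1, 0.037 and 0.204 CPM, and Matn1 was at most 0.625 CPM outside E11.5, so that E11.5 was the high stage for both. Cryaa averaged 36.7, 0.0336, 21.4 and 0 CPM, and Aldh1a1 47.5, 0.574, 32 and 0.634, with E11 and E12 high and E11.5 and E12.5 low. Ptgds and Bcan were high at E11.5 alone among the 4 stages, at 8.72 and 21.1 CPM against at most 0.983 and 2.88 elsewhere. Kmt2d averaged 247, 275, 64.4 and 286 CPM and Rps28 14.3, 14.7, 107 and 19.9, so for these genes E12 was the stage that differed from the other three. Twist1 averaged 36.4, 21.8, 69 and 27.4 CPM, and Hbb-bh1 388, 17.9, 939 and 165, with E11.5 the lowest and E12 the highest of the 4.

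**Figure D5:**
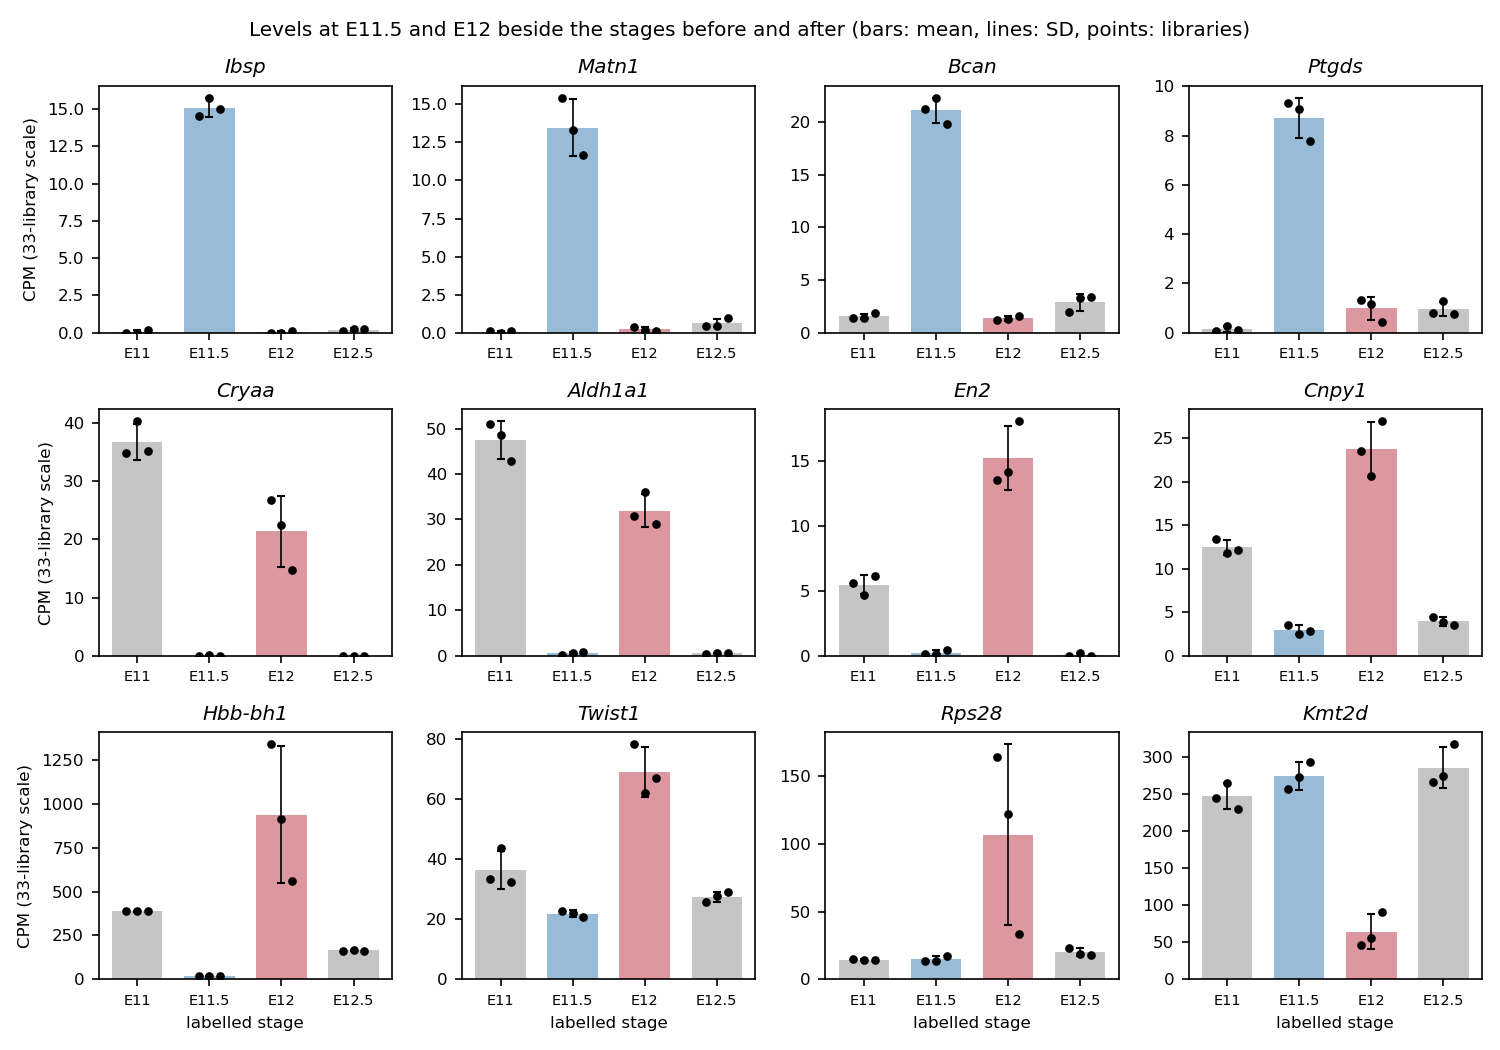
Levels (CPM, scaled over 33 libraries) of 12 genes at E11, E11.5, E12 and E12.5; bars are means over n = 3 libraries, lines the SD and points the libraries. Ibsp, Matn1, Bcan and Ptgds are high at E11.5 alone, Cryaa and Aldh1a1 at E11 and E12, and Rps28 and Kmt2d depart at E12, up to a mean of 107 CPM and down to 64.4 CPM.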

How the data were processed

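The authors deposited a table of raw read counts per gene for 33 polyA RNA libraries, with a table of exonic gene sizes. Per the submitters' processing notes the tools were cutadapt 1.9.1, HISAT2 2.0.1 and HTSeq 0.6.1 with genome GRCm38; the sources used here do not state their roles, the annotation release or the strand setting. Column names give the stage, and their letters a, b and c only name a library. Symbols and coordinates are GENCODE M21 (55141 of 55401 IDs matched), and promoters RefSeq.

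The 6 libraries were fitted in edgeR 4.0.16 (R 4.3.3): filterByExpr, TMM scaling and the quasi-likelihood F test, with Benjamini-Hochberg adjustment and a threshold of 0.05. The SE is the fold change over the square root of F, and can lie below counting error at few counts. For length adjustment, each gene's log2 CPM (prior count 2) was taken relative to its mean over the libraries. A natural spline with 4 degrees of freedom on log2 exonic length was fitted to it in each library and entered as an offset. Single shares and slopes were compared by exact permutation tests with scipy 1.17.1. Genes were named by rule: the 12 largest rises and falls passing both scalings, with at least 5 CPM in the higher stage, no overlap and no predicted genes or pseudogenes, the 4 largest passing members of each list (all members of the tendon, globin and sex chromosome lists), the shortest and longest ribosomal protein and long-message genes, and some bone genes in any case. Gene lists and comparisons were chosen with earlier results of these data known, so their counts are descriptions. Code was tested on simulated data. Alternatives used DESeq2 1.42.0 and limma 3.58.1, and figures matplotlib 3.10.9. A few named genes are not reported here.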

Additional observations from a re-analysis of the deposited data

How the results depend on the processing

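The numbers of higher and lower genes stayed within 1.5 times 5448 and 5592 under the other scalings, filters and tools run except in 2 cases for the higher genes, 3455 with library totals alone and 8235 when the length trend was removed and all 33 libraries were fitted. Leaving out 1 library at a time gave 4369 to 6653 higher and 4326 to 6970 lower genes. The letters a, b and c did not pair the libraries (correlations of same-letter deviations -0.027, -0.004 and -0.027), and with the letter as a replicate block 4906 genes were higher and 5238 lower. With 1 library left out the length slope was lower at E12 and the ribosomal protein and globin shares higher in each case, with a smallest possible p of 0.2. Of 222 named genes with a fit, 182 kept direction and call in every alternative. Many of the 222 were named because they passed the test with large changes, so this count does not describe all genes tested. The causes of the changes that follow were not tested. With the length trend removed, differences changed sign for Runx2 (0.16), Alpl (0.09), Spp1 (-0.13), Col1a1 (0.35), Enpp1 (0.16), Rian (0.97), Kdm5d (0.07), Ptch1 (0.19), Igf1r (0.06) and, chosen after its values were seen, Neat1 (0.44), and over all 33 libraries as well for Runx2 (0.16), Alpl (0.13), Col1a1 (0.36), Enpp1 (0.16), Rian (0.99), Kdm5d (0.08), Ptch1 (0.19) and Igf1r (0.06). With totals alone they did so for Spp1 (-0.12), Thbs4 (-0.08), Eif2s3y (-0.37) and Chd4 (-0.27). With E12 library c alone, an alternative added after seeing the data, they did so for Spp1 (-0.47), Col1a1 (0.47), Egr1 (0.01) and Eif2s3y (-0.56). Alpl was at 0.0 without a filter and in DESeq2, and Eif2s3y at -0.03 with the stricter filter and with the replicate block. Leaving out 1 library at a time moved Alpl between -0.1 and 0.07, Col1a1 between -0.36 and 0.23, Hbb-bs between -0.69 and 0.09, Eif2s3y between -0.15 and 0.28 and Chd4 between -0.08 and 0.24. At 14516518 to 18298159 counts a library, genes with few counts at a stage, such as Ibsp at E12, have wide intervals, and intervals cover counting error only.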
